A study of Danio rerio with 14 samples.

Results

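Accessible chromatin was compared between cardiomyocytes overexpressing junba and cardiomyocytes overexpressing junbb, a pair of zebrafish genes for the AP-1 subunit JunB, in 4 of the 14 ATAC-seq libraries of the series. The comparison took every nuclear peak whose mean over the 8 libraries of the shared table was at least 10, which kept 14776 of 16609 nuclear peaks. ATAC-seq uses a transposase to cut open chromatin, so that the reads in a peak measure how accessible the region is. Values are normalized counts made by the authors, which are background-corrected reads divided by size factors and rounded.

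The junba and junbb groups hold 2 libraries each, from uninjured adult hearts at 7 days after transgene induction with 4-hydroxytamoxifen injected intraperitoneally (0.5 mg/mL). The labels call the lines CM:junbaOE and CM:junbbOE and name neither the promoter nor the construct. Cells of both groups came from a density gradient, 50000 to a reaction, so the way of isolation is shared. A pair of further groups, again of 2 libraries each, serve as reference values and share the estimate of spread. They are uninjured Tg(myl7:nucDsRed)+ cardiomyocytes, called uninjured below, and Tg(gata4:EGFP)+ cardiomyocytes at 4 days after cryoinjury, called regenerating below, both sorted by fluorescence with 5000 cells per reaction. Every library pools 6 hearts, and nothing beyond that says that replicates came from separate fish, so p-values measure the spread between these libraries. Overexpression, tamoxifen, isolation and cell number cannot be told apart in any value set against uninjured cells, whereas junba against junbb differs in the transgene alone as far as the labels say.

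AP-1 is a dimer of Jun and Fos family proteins that binds a short DNA site and is known for opening enhancers when cells respond to injury or stress. JunB is a Jun member that can pair with Fos proteins or with other Jun members. Zebrafish carry junba and junbb as duplicates from the genome duplication of teleost fish, and the comparison asks whether cardiomyocytes with either duplicate differ in accessible chromatin.

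By estimate, the junba libraries were shallower than the junbb libraries. The values of junba replicates 1 and 2 stand for an estimated 613592 and 468577 nuclear reads, and those of junbb for 851110 and 916188. These rest on the spacing of the values. The estimate explained a share of 0.984 and 0.996 of the spacing with junba and 0.647 and 0.957 with junbb, so that of junbb replicate 1 is the least certain. Nuclear peaks listed at 0 numbered 394 and 775 with junba and 121 and 232 with junbb. The peak on mitochondrial DNA, which entered no fit, took 87.8 ± 0.106% of the summed values with junba and 84.2 ± 2.0% with junbb (mean ± SD, n = 2). The part that depth plays in the differences given below was not tested.

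Cardiomyocytes with junba and with junbb differed at 13 of the 14776 peaks (0.088% called). With junba 8 peaks were higher (0.0541% called), among them peaks at hsp70l, cirbpa, eif3hb and mif4gdb. With junbb 5 were higher (0.0338% called), among them peaks near zbtb12.1 and zgc:91999. Calls rest on limma, fitted over all 8 libraries on log2(value + 5), two-sided, with a Benjamini-Hochberg adjusted p under 0.05. At an unadjusted p under 0.05 there were 1494 peaks (10.1% called), 596 higher with junba (4.03%) and 898 higher with junbb (6.08%). That balance depended on the scaling, with 263 and 1364 under equal totals and 661 and 656 under quantile normalization, and so does each list count set beside it. Against uninjured cells the same fit called 3857 peaks with junba (26.1%) and 4259 with junbb (28.8%). These 2 comparisons share the uninjured libraries and are given side by side only.

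Without trend and robust estimation of the spread 2 peaks were called in each direction, and the calls at zgc:91999 (0.186), cirbpa (0.125), ENSDARG00000055690 (0.07) and the region on chromosome 17 (0.0658) were among those lost (adjusted p in parentheses). The count depended on each library. Without junbb replicate 1 there were 0 peaks higher with junba and 1 higher with junbb (553 and 579 at an unadjusted p under 0.05), and without junbb replicate 2 there was 1 in each direction. Leaving out junba replicate 1 gave 124 and 202, and leaving out junba replicate 2 gave 18 and 27. Scaling libraries to equal totals gave 4 higher with junba and 6 higher with junbb and moved the median difference of all peaks from −0.04 to −0.18. Of the 13 peaks, zbtb12.1 alone kept its call in all 4 omissions. That of ENSDARG00000055690 was lost without junbb replicate 1, and the other 11 were lost without either junbb replicate. Those of mif4gdb, eif3hb and the region on chromosome 3 were also lost without junba replicate 2. The main fit also assumes a common spread for all 4 groups at a peak, although replicates differed more in some groups than in others (given below). Fitted on the junba and junbb libraries alone, 9 peaks were called higher with junba and 4 higher with junbb. Of the main calls, 7 and 4 were among these. With 1 library left in a group, the fit assumes that it varies like the other groups.

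**Figure D1:**
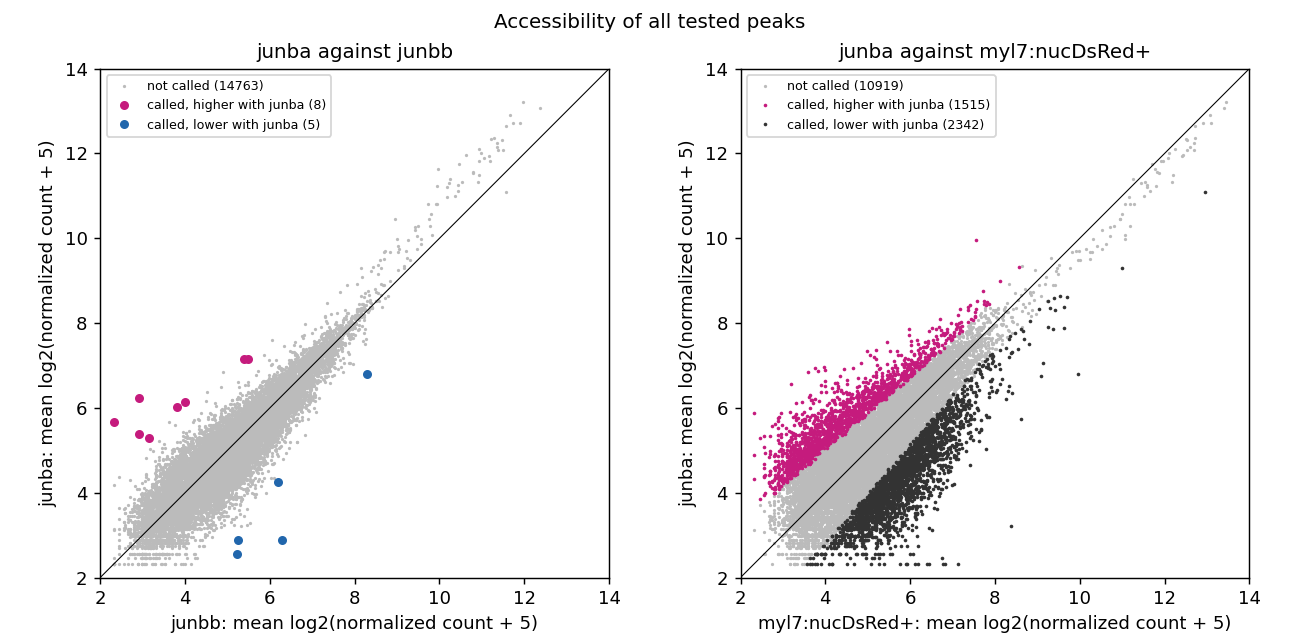
Mean log2(normalized count + 5) of every tested peak with junba (vertical axes) against junbb (left) and uninjured myl7:nucDsRed+ cells (right), each point 1 peak and each mean over 2 libraries. Called peaks are coloured, 13 on the left and 3857 on the right. The median absolute difference is 0.30 in the left panel and 0.57 in the right.

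The estimated differences between the duplicates were small at most peaks, though the intervals of most were wide. The median absolute log2 difference between junba and junbb was 0.30, against 0.57 for junba and 0.58 for junbb set against uninjured cells. An estimate of 1 or more in size (a 2-fold difference on the scale of value + 5) was found at 643 peaks (4.35%), 221 higher with junba and 422 higher with junbb. The corresponding shares against uninjured cells were 26.5% with junba and 29.0% with junbb. The 95% interval of the junba minus junbb difference lay inside ±1 at 5882 peaks (39.8%) and inside ±2 at 14370 peaks (97.3%), so a difference of 2-fold could not be told from none at most peaks. Peaks with a mean of at least 100 were measured best: 84.8% of those 1187 peaks had an interval inside ±1, against 19.9% of the 7487 peaks with a mean under 30.

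Single libraries gave the same order of sizes. Replicates 1 and 2 of junba differed by 1 or more on the log2 scale at 16% of peaks, and those of junbb at 5.97%. The share was 8.3% for the uninjured and 3.08% for the regenerating replicates. Pairs of 1 junba and 1 junbb library differed that much at 10.7% to 14.8% of peaks, which is less than the junba replicates differed from each other. Pairs of 1 uninjured library and 1 junba or junbb library differed at 26.7% to 35.6%.

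**Figure D2:**
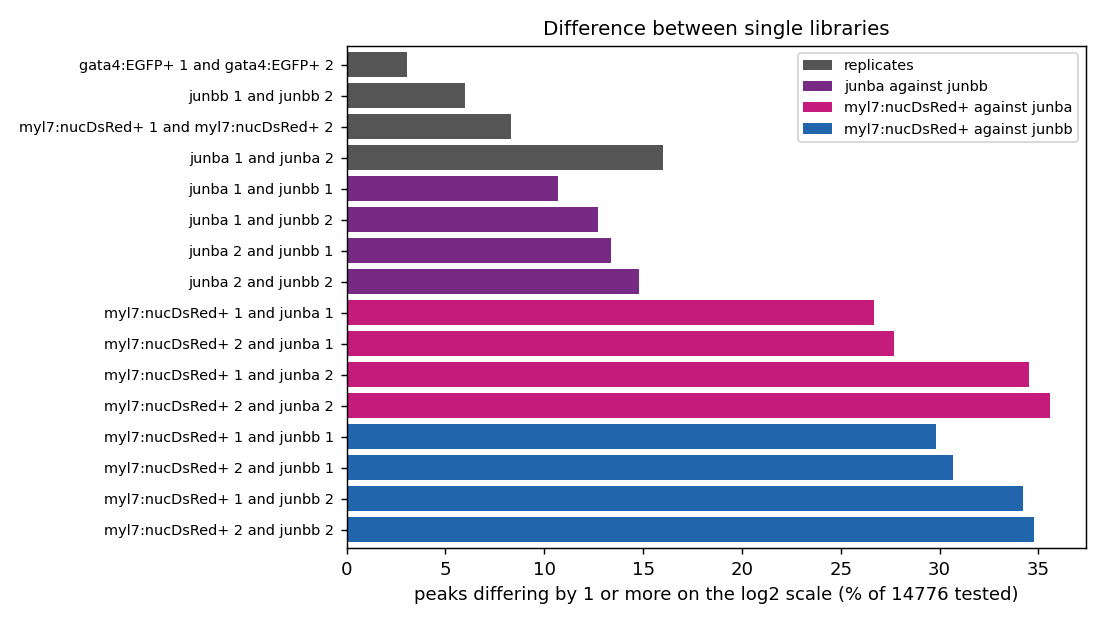
Share of the 14776 tested peaks (horizontal axis, %) that differ by 1 or more in log2(normalized count + 5) between 2 single libraries, 1 bar a pair. The 4 junba against junbb bars, 10.7% to 14.8%, lie between the bars of the junbb replicates (5.97%) and the junba replicates (16%), below every bar against uninjured cells.

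The peak with the smallest p lay 3881 bp upstream of the start site of zbtb12.1 (ENSDARG00000103949, chr19:26947631-26948002), a gene of the BTB zinc finger family. It held 6 and 0 normalized counts with junba and 71 and 76 with junbb, 42 and 69 in uninjured and 65 and 87 in regenerating cells. Both junba libraries stood far below the other 6. The log2 difference was −3.40 ± 0.38 (SE, adjusted p = 9.91e-05), and it kept its call under all 15 alternatives, the 4 omissions of a library included. The size of the junba minus junbb difference depended on the pseudocount, with −4.81 at 1 and −2.04 at 20. Against uninjured cells the difference was −2.99 with junba (adjusted p = 2.84e-05) and 0.41 with junbb (adjusted p = 0.453). The next peak of the same gene, 5997 bp away, held 15 and 2 with junba and 12 and 9 with junbb, and was not called (−0.38, adjusted p = 0.827).

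The peak upstream of zgc:91999 (ENSDARG00000105001, chr24:38292437-38292823, 3747 bp from the start site) was the called peak with the highest level. It held 108 and 106 with junba, 327 and 290 with junbb, 947 and 1024 in uninjured and 234 and 393 in regenerating cells. Both duplicates lay below uninjured cells, junba further. The difference between them was −1.48 ± 0.24 (adjusted p = 0.0058), with −3.14 (adjusted p = 5.13e-08) for junba and −1.66 (adjusted p = 4.6e-05) for junbb against uninjured cells. A peak with no assigned gene at chr17:36988205-36989022 held 14 and 14 with junba and 78 and 60 with junbb, around uninjured values of 33 and 39. It differed by −1.95 ± 0.32 (adjusted p = 0.0064) and was called lower with junba and higher with junbb against uninjured cells (−1.11 and 0.85, adjusted p = 0.0138 and 0.0494).

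The remaining 2 peaks higher with junbb had low levels. A peak with no assigned gene at chr24:9179575-9179880 held 2 and 0 with junba and 36 and 29 with junbb, against 1 and 1 in uninjured and 40 and 37 in regenerating cells (−2.66 ± 0.42, adjusted p = 0.00553). The junbb libraries stood with the regenerating ones and the junba libraries with the uninjured ones. At the start of si:ch211-212k18.8 (ENSDARG00000086421, chr7:19495647-19495911, 400 bp) the values were 1 and 4 with junba and 32 and 34 with junbb, 6 and 3 in uninjured and 18 and 8 in regenerating cells (−2.37 ± 0.45, adjusted p = 0.0275). That call was lost with a pseudocount of 1 (0.144), under quantile normalization (0.05), with the junba and junbb libraries alone (0.0595) and without trend and robust estimation (0.0658). The call on chromosome 24 was lost with a pseudocount of 1 (0.0542). Both sizes depended on the pseudocount. On chromosome 24 the difference was −4.27 at 1 and −1.32 at 20, and at si:ch211-212k18.8 −3.43 and −1.24.

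The heat shock gene hsp70l (ENSDARG00000055723), which encodes an inducible Hsp70 chaperone, was the only gene of the 21 gene lists with a called peak. That is 1 of 555 list peaks, where 0.088% of all tested peaks were called. Its called peak lies in the gene body, 967 bp from the start site (chr8:4798885-4799364). It held 141 and 132 with junba and 48 and 28 with junbb, 32 and 31 in uninjured and 20 and 22 in regenerating cells. The junba libraries stood above all others (1.76 ± 0.32, adjusted p = 0.0223). The call was lost without either junbb library, with adjusted p = 0.0899 without replicate 1 and 0.543 without replicate 2, under equal totals (0.0989), with a pseudocount of 1 (0.0542) and without trend and robust estimation (0.125).

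At the other 2 peaks of hsp70l the junba libraries were also the highest, without passing the threshold, while the order of the remaining groups differed. The promoter peak, 61 bp from the start site (chr8:4797944-4798493), held 177 and 199 with junba and 81 and 46 with junbb (1.54 ± 0.31, adjusted p = 0.0519). Uninjured cells held 96 and 46 there and regenerating cells 53 and 50. The peak 2566 bp from the start site (chr8:4800285-4801162) held 163 and 132 with junba and 71 and 40 with junbb (1.38 ± 0.31, adjusted p = 0.113). Its values were 24 and 33 in uninjured and 55 and 44 in regenerating cells. At both, each junba library was above each junbb library. The 3 peaks cover 1 gene and are not independent of each other. As background, transgenes in zebrafish often carry the hsp70l promoter. Whether reads from a construct entered these peaks was not tested.

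Related chaperone genes gave no call. The 6 peaks of hsp70.1, hsp70.2 and hsp70.3, inducible Hsp70 genes of near-identical sequence, differed by −0.40 to 0.13 and none was called. The promoter peak of hspa8, the constitutive Hsp70, held 129 and 126 with junba and 138 and 192 with junbb (−0.34, adjusted p = 0.664). How the authors' counting placed reads that match several Hsp70 genes is not given in the sources used here, so values of single members are uncertain. The wide promoter peak of ubb, a polyubiquitin gene, held 973 and 1018 with junba and 604 and 618 with junbb, against 200 and 166 in uninjured cells. The junba and junbb values did not overlap, and the difference was not called (0.70 ± 0.23, adjusted p = 0.306). It depended on the scaling, with 0.52 under equal totals and 0.04 under quantile normalization. As background, the ubb promoter is also a common transgene driver. Whether reads from a construct entered this peak was not tested.

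**Figure D3:**
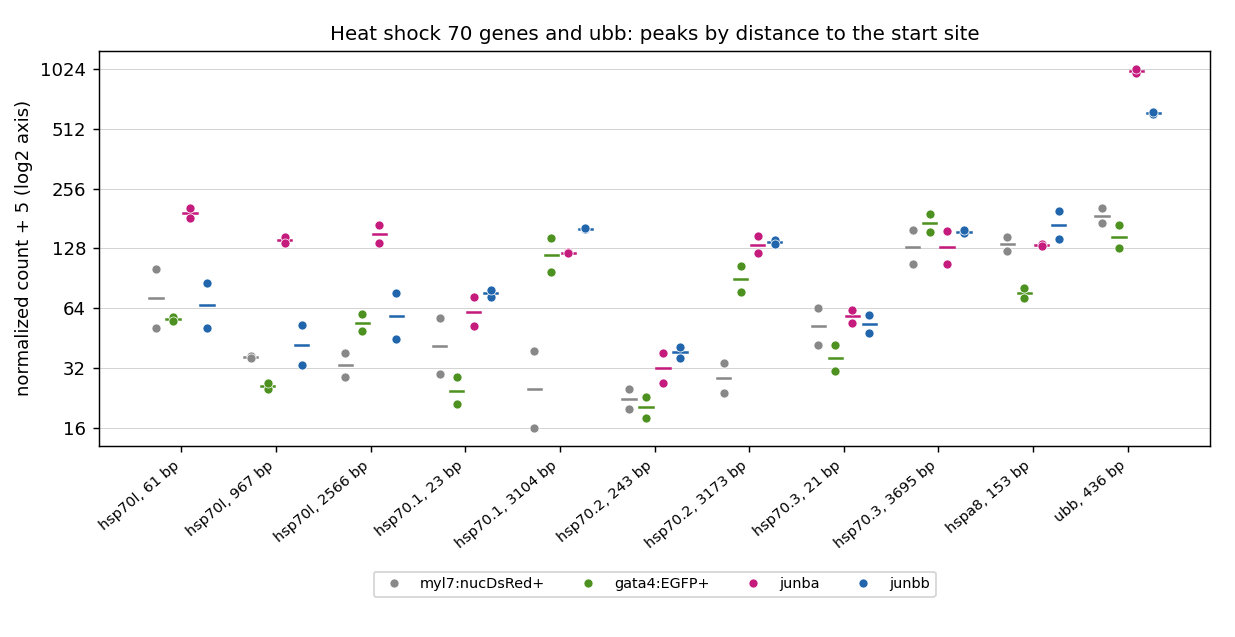
Normalized count + 5 (log2 axis) at the peaks of Hsp70 genes and ubb, labelled with the distance of the peak centre to the start site. Each point is 1 library and each bar the mean on the log2 scale. At the 3 hsp70l peaks both junba points lie above all others, and at hsp70.1, hsp70.2 and hsp70.3 the junba and junbb points lie close together.

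Of the other 7 peaks higher with junba, 5 had an assigned gene. The peak 2773 bp upstream of cirbpa (ENSDARG00000103672, chr2:58838278-58838537), named for the cold-inducible RNA-binding protein, held 58 and 85 with junba and 3 and 2 with junbb (3.33 ± 0.55, adjusted p = 0.0064). The uninjured libraries, at 8 and 65, were spread over most of that range. The size of the junba minus junbb difference was 4.36 with a pseudocount of 1 and 2.01 with 20. The next peak of cirbpa, 3355 bp away, held 24 and 31 with junba and 29 and 34 with junbb (−0.17, adjusted p = 0.909). Within eif3hb (ENSDARG00000036116, chr19:45959322-45959678), for the H subunit of the initiation factor eIF3, the values were 56 and 65 with junba and 9 and 9 with junbb (2.22 ± 0.41, adjusted p = 0.0241). The call was lost with a pseudocount of 1 (0.0734), under equal totals (0.0662) and without trend and robust estimation (0.103). Uninjured cells held 31 and 13 and regenerating cells 8 and 16, so the junba libraries were the high ones. At the promoter of mif4gdb (ENSDARG00000102578, chr3:11088837-11089247), whose human counterpart acts in the translation of histone mRNA, the values were 130 and 147 with junba, 31 and 51 with junbb, 86 and 96 in uninjured and 12 and 15 in regenerating cells. The difference was 1.67 ± 0.30 (adjusted p = 0.0223), and its call was lost under the same 3 settings (0.0542, 0.0992 and 0.153).

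The unnamed gene ENSDARG00000055690 had a called peak 294 bp from its start site (chr15:44116729-44117262). It held 49 and 88 with junba, 9 and 13 with junbb, 119 and 99 in uninjured and 184 and 198 in regenerating cells (2.16 ± 0.30, adjusted p = 0.00149). The junbb libraries were the low ones. They were also the low ones 151 bp upstream of si:ch211-262i1.5 (ENSDARG00000070059, chr11:14311955-14312263). That peak held 43 and 31 with junba, 3 and 2 with junbb, 45 and 30 in uninjured and 27 and 29 in regenerating cells (2.47 ± 0.38, adjusted p = 0.00479). Its size was 3.44 with a pseudocount of 1 and 1.33 with 20. A region with no assigned gene at chr3:6095304-6095747 held 26 and 45 with junba, 5 and 3 with junbb, 31 and 44 in uninjured and 5 and 8 in regenerating cells (2.14 ± 0.41, adjusted p = 0.0358). Its call was lost with a pseudocount of 1 (0.0705), under equal totals (0.0662), with the junba and junbb libraries alone (0.142) and without trend and robust estimation (0.0788).

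Only 1 called peak was listed at 0 in both libraries of a group. That region, with no assigned gene at chr20:46874144-46874487, held 26 and 79 with junba and 0 and 0 with junbb, 42 and 29 in uninjured and 0 and 0 in regenerating cells (adjusted p = 0.00149). The size of its fitted difference depends on the pseudocount and no fold is given. Of the 14776 peaks, 35 were at 0 in both junba and 13 in both junbb libraries, and this region alone among them held 20 or more in both libraries of the other group.

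**Figure D4:**
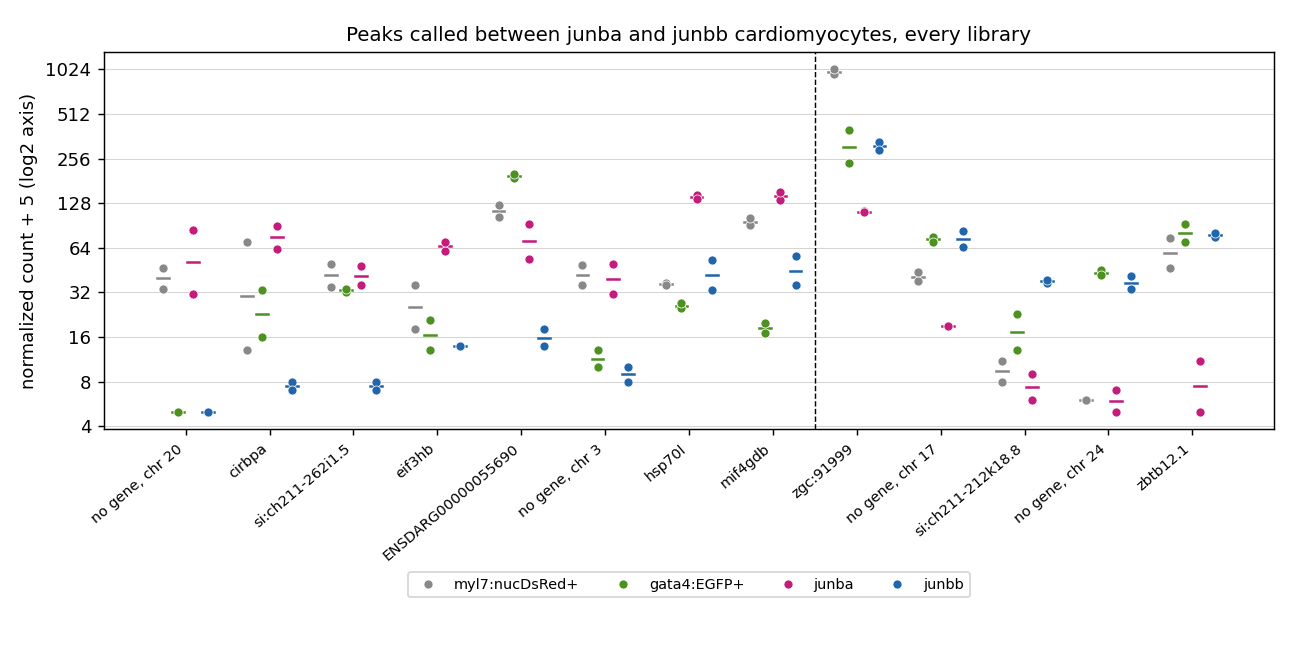
Normalized count + 5 (log2 axis) in each of the 8 libraries at the 13 called peaks, ordered by the junba minus junbb difference, with bars at the mean on the log2 scale. At the 8 peaks left of the dashed line both junba points lie above both junbb points, and at the 5 to its right below them.

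The calls of the 13 peaks against uninjured cells reuse the junba and junbb values that chose them and are given as a description, beside 26.1% of all peaks called with junba and 28.8% with junbb. Of the 8 peaks higher with junba, 6 were called lower with junbb and not called with junba, and the other 2, hsp70l and eif3hb, were called higher with junba and not called with junbb. Of the 5 higher with junbb, 3 were called lower with junba and 3 higher with junbb, the region on chromosome 17 in both counts. The zgc:91999 peak was called lower with both duplicates. Regenerating cells differed from uninjured cells at 5 of the 13. That comparison shares no library with junba against junbb but shares the estimate of spread, so the 5 are given as a description. It called 1818 peaks higher (12.3%) and 977 lower (6.61%) over all. The 5 were mif4gdb (−2.38), zgc:91999 (−1.68) and the region on chromosome 3 (−1.88), all lower in regenerating cells, the region on chromosome 20, listed at 0 in both regenerating libraries, and the region on chromosome 24 (2.86), which was higher.

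The called peaks were spread over the genome. They lay on 10 of 25 chromosomes, no gene had a second called peak, and 9 had an assigned gene. Within 500 bp of a start site lay 4 of the 13 (5653 peaks of this kind were tested), elsewhere in gene bodies 2 (of 1045), beside genes 3 (of 1174) and at regions with no assigned gene 4 (of 6904). Of the 26 tested peaks next to a called one, 392 to 442716 bp away, 0 were called, where 0.088% of all peaks were. An unadjusted p under 0.05 in limma was found at 5 of the 26, where all peaks gave 10.1%. The other 2 peaks of hsp70l are among these 5. Leaving aside the 2 at hsp70l, the largest difference among these neighbours was 1.16 in size. The share of peaks with an unadjusted p under 0.05 ran from 7.92% at promoters to 11.7% at regions with no gene. Median levels were 42.2 at promoters and 22.9 at regions with no gene.

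Neither junba nor junbb had a called peak at its own gene. The promoter peak of junba (ENSDARG00000074378, chr1:51734135-51734885) held 161 and 147 with junba and 128 and 201 with junbb, a difference of −0.06 (95% interval −0.56 to 0.44, adjusted p = 0.961). Its peak 3096 bp upstream (chr1:51737524-51737738) held 26 and 33 with junba and 38 and 39 with junbb (−0.34, 95% interval −1.04 to 0.36, adjusted p = 0.782). The libraries of the groups overlapped at the promoter and lay close together upstream. For junbb (ENSDARG00000104773) the promoter peak (chr3:7655938-7656241) held 74 and 81 with junba and 86 and 48 with junbb (0.25, 95% interval −0.37 to 0.87, adjusted p = 0.832). Its gene body peak (chr3:7654930-7655644) held 185 and 161 with junba and 199 and 227 with junbb (−0.29, 95% interval −0.77 to 0.19, adjusted p = 0.716). The peak downstream of junbb (chr3:7653992-7654370) held 77 and 120 with junba and 78 and 65 with junbb (0.41, 95% interval −0.14 to 0.95, adjusted p = 0.634). Accessibility of a gene does not measure the amount of its RNA or of a transgene.

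The list of AP-1 subunits, which includes the junba and junbb peaks above, gave no call either. Of 23 peaks at 17 genes for Jun, Fos, Maf, Atf and related proteins, 0 were called in limma and 0 had an unadjusted p under 0.05, against 10.1% of all peaks. Their median difference was −0.06, and the interval lay inside ±1 at 19 of 23, against 39.8% of all peaks. Intervals were narrower at peaks of higher level, and these 23 were not compared with peaks of the same level. The largest difference was at jdp2a, a repressive partner of Jun, with 26 and 18 with junba and 42 and 36 with junbb (−0.72 ± 0.35, adjusted p = 0.495). The promoter of jun held 205 and 244 with junba and 247 and 281 with junbb (−0.23, adjusted p = 0.750), and that of fosab 261 and 224 with junba and 213 and 219 with junbb (0.16, adjusted p = 0.855).

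Over all lists, 456 of 995 genes had a tested peak, 555 peaks in all, and hsp70l gave the only call. Over all tested peaks 0.088% were called, and at that share 0 calls in a single list does not set it apart. Sarcomere genes, which build the contractile apparatus, leaned towards junba: 28 of 32 peaks had an estimate above 0, where 6861 of all 14776 peaks did. Their median was 0.34 against −0.04 for all peaks, and 0 were called. An unadjusted p under 0.05 was found at 6 of the 32 with junba higher and at 0 with junbb higher, where all peaks gave 4.03% and 6.08%. The smallest p was at tnnc1a, for troponin C, with 74 and 47 with junba and 22 and 30 with junbb (1.06 ± 0.29, adjusted p = 0.181). The promoter of acta1b, a muscle actin gene, held 44 and 35 with junba and 21 and 17 with junbb (0.89 ± 0.27, adjusted p = 0.261), and that of the titin gene ttn.1 held 30 and 24 against 12 and 8 (1.1 ± 0.36, adjusted p = 0.314). Uninjured cells held 172 and 203, 208 and 190, and 70 and 78 at these 3 peaks. The first was named for its p and the others with their values known, so the order of their libraries is no separate result. The list's median against uninjured cells was −1.32 with junba and −1.7 with junbb. The promoter of myl7, the cardiac myosin light chain gene, did not separate the groups, with 137 and 45 with junba and 66 and 94 with junbb (0.01, adjusted p = 1.000).

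The summed sarcomere values were 1131 and 739 with junba, 694 and 631 with junbb and 2405 and 2830 in uninjured cells. Junba replicate 1 was the high one among the 4: the list's median was 0.19 without it, 0.18 without junbb replicate 2, 0.37 without junbb replicate 1 and 0.71 without junba replicate 2. Cardiomyocyte markers, a list that shares genes with the sarcomere list, summed to 958 and 689 with junba, 652 and 665 with junbb and 2044 and 2457 in uninjured cells. Of their 25 peaks 20 were above 0, where 6861 of all 14776 peaks were, and 0 were called (median 0.27). That median was 0.74 without junba replicate 2, 0.16 without junba replicate 1, and 0.28 and 0.25 without junbb replicates 1 and 2.

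Markers of endothelial and endocardial cells, the lining of vessels and heart chambers, leaned the other way. Of their 21 peaks 19 were below 0, where 7861 of all 14776 peaks were. Their median was −0.37, and 0 were called in limma, where 0.088% of all peaks were. An unadjusted p under 0.05 was found at 6, all with junbb higher. All peaks gave 4.03% higher with junba and 6.08% higher with junbb. The summed values of the endothelial and endocardial peaks were 738 and 808 with junba, 1054 and 1165 with junbb, 288 and 315 in uninjured and 420 and 429 in regenerating cells. Both junbb libraries were above both junba libraries and all 4 above the other groups. The median ran from −0.53 to −0.21 over the alternatives. The promoter of klf2a, a flow-responsive transcription factor gene, held 61 and 51 with junba and 114 and 118 with junbb (−0.99 ± 0.30, adjusted p = 0.253). The peak 3029 bp from the start of egfl7, a secreted endothelial factor, held 62 and 20 with junba and 101 and 116 with junbb (−1.47 ± 0.45, adjusted p = 0.261). Values at sox18, an endothelial transcription factor gene, were 21 and 31 with junba and 44 and 58 with junbb (−0.86 ± 0.39, adjusted p = 0.465). In bulk libraries, fewer cells of a type and less signal per cell cannot be told apart, and the part of such cells in the differences between junba and junbb was not tested.

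Markers of other cell types had few tested peaks and 0 calls. Epicardial and fibroblast markers had 9 peaks (median −0.27), smooth muscle markers 5 (median −0.35), leukocyte markers 3 (median 0.35), erythroid and thrombocyte markers 2 (median −0.59) and neural and Schwann markers 1 (0.48). With 1 library left out these ran from −0.60 (without junba replicate 2) to −0.05 (without junba replicate 1) for epicardial and fibroblast markers. For smooth muscle markers they ran from −0.58 (without junba replicate 1) to 0.05 (without junba replicate 2), and for leukocyte markers from 0.19 (without junba replicate 2) to 0.65 (without junba replicate 1). For erythroid and thrombocyte markers they ran from −1.04 (without junba replicate 1) to −0.13 (without junba replicate 2), and for neural and Schwann markers from 0.12 (without junba replicate 2) to 0.83 (without junba replicate 1). The epicardial and fibroblast peaks with the smallest p included dcn, the decorin gene, with 12 and 8 with junba and 27 and 24 with junbb (−1.04 ± 0.40, adjusted p = 0.395). Estimates of the 9 epicardial and fibroblast peaks ran from −1.04 to 1.01. At an unadjusted p under 0.05 in limma, 1 was higher with junba and 2 with junbb, where all peaks gave 4.03% and 6.08%. Smooth muscle smtnl held 71 and 65 with junba and 94 and 121 with junbb (−0.61 ± 0.27, adjusted p = 0.450). The lowest p was 0.671 adjusted at rac2 for leukocyte markers, 0.619 at sptb for erythroid and thrombocyte markers and 0.738 at elavl4 for neural and Schwann markers.

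The other muscle, energy and stress lists held no called peak besides hsp70l. Immediate early genes outside AP-1, which respond within minutes to many stimuli, had 0 called of 46 peaks in limma and a median of −0.03, while 8 had an unadjusted p under 0.05, all with junbb higher, where 6.08% of all peaks were. Their members included klf2a, the promoter of the transcription factor gene cebpd, with 162 and 140 with junba and 208 and 247 with junbb (−0.57 ± 0.22, adjusted p = 0.411), and egr1, with 135 and 252 with junba and 249 and 333 with junbb (−0.63 ± 0.25, adjusted p = 0.413). The junba and junbb values of egr1 overlapped. The heat shock list as a whole had a median of −0.12 over 37 peaks. In calcium handling and conduction (20 peaks, median −0.05) 3 peaks had an unadjusted p under 0.05 in limma with junba higher. With junbb higher there was 1, where all peaks gave 4.03% and 6.08%. Estimates in that list ran from −1.40 to 1.15, and the calcium channel subunit gene cacnb2a had the smallest p. Its promoter held 27 and 16 with junba and 61 and 66 with junbb, against 9 and 4 in uninjured cells (−1.40 ± 0.39, adjusted p = 0.188).

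Cardiac transcription factors and regeneration genes had a median of −0.05 over 36 peaks. Their smallest p was at the homeobox gene meis1b, with 161 and 102 with junba and 207 and 254 with junbb (−0.81 ± 0.24, adjusted p = 0.245). Glycolysis (43 peaks, median 0.00) had its smallest p upstream of the lactate dehydrogenase gene ldhba, with 32 and 26 with junba and 9 and 13 with junbb (1.09 ± 0.37, adjusted p = 0.316). Oxidative metabolism had a median of 0.12 over 41 peaks, 30 of them above 0, where 6861 of all 14776 peaks were. Its smallest p was at the mitochondrial phosphate carrier gene slc25a3b, which went the other way (−0.73, adjusted p = 0.461). That peak held 51 and 22 with junba and 61 and 58 with junbb. Its difference was −1.26 without junba replicate 1 and −0.2 without junba replicate 2. The Z-disc and intercalated disc list had a median of −0.02 over 34 peaks, with the myosin chaperone gene unc45b at −1.15 (adjusted p = 0.440).

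Growth and matrix lists held 0 called peaks in limma. At an unadjusted p under 0.05, the cell cycle list (54 peaks) and the matrix and adhesion list (31 peaks) each had 1 peak higher with junba and 3 higher with junbb. The shares over all peaks were 4.03% and 6.08%. Cell cycle genes had a median of −0.08 over 54 peaks, and the spindle checkpoint gene bub1ba held 5 and 18 with junba and 28 and 36 with junbb (−1.28 ± 0.50, adjusted p = 0.406). Actin protrusion genes, for the machinery of cell extension, had a median of −0.17 over 52 peaks, with 1 at an unadjusted p under 0.05 higher with junba and 6 higher with junbb, where all peaks gave 4.03% and 6.08%. The promoter of wasf3b, of the WAVE family of actin regulators, held 14 and 33 with junba and 59 and 47 with junbb (−1.10 ± 0.38, adjusted p = 0.335). Extracellular matrix and adhesion genes had a median of −0.19 over 31 peaks. Of these, 23 were below 0, where 7861 of all 14776 peaks were. The median was −0.42 without junbb replicate 1, −0.29 without junba replicate 2, −0.06 without junbb replicate 2 and −0.05 without junba replicate 1. The integrin gene itgb5 held 75 and 114 with junba and 147 and 160 with junbb (−0.70 ± 0.27, adjusted p = 0.399). Ubiquitin and proteasome genes had a median of 0.14 over 48 peaks, with ubb at the smallest p. The cytokine and NF-kappaB list had a median of 0.05 over 43 peaks, with nfkbiaa, an inhibitor of NF-kappaB, at 0.90 (adjusted p = 0.482).

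**Figure D5:**
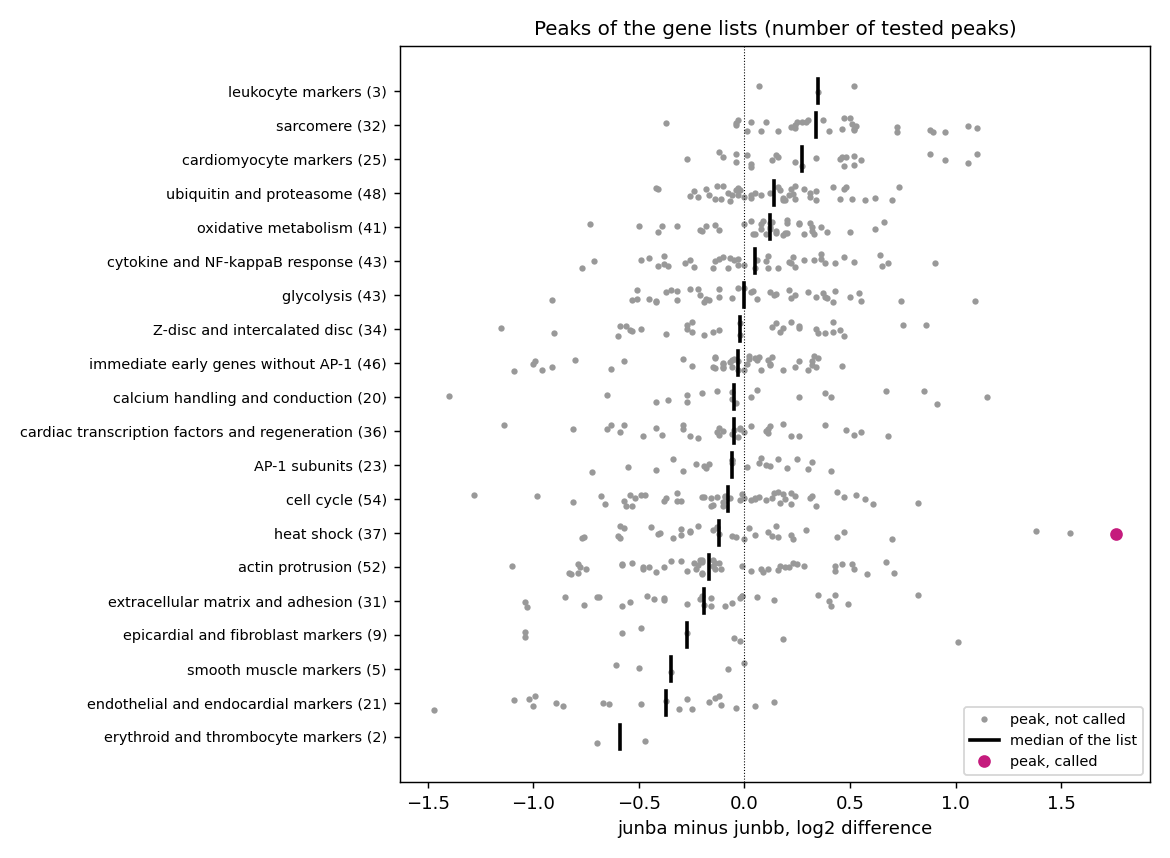
The junba minus junbb log2 difference (horizontal axis) of each tested peak of the gene lists, with the number of peaks in parentheses and a bar at the median. Lists with 1 tested peak are not drawn. The single called peak is that of hsp70l, and medians of the lists drawn run from 0.35 (leukocyte markers, 3 peaks) and 0.34 (sarcomere) to −0.37 (endothelial and endocardial markers) and −0.59 (erythroid and thrombocyte markers, 2 peaks).

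Peaks that differ in regenerating cells were described by class. At the 1818 peaks higher in regenerating than in uninjured cells, the median junba minus junbb difference was −0.13. An unadjusted p under 0.05 in limma was found at 9.74% of them, 40 higher with junba and 137 higher with junbb. All tested peaks gave 10.1%, with 4.03% higher with junba and 6.08% higher with junbb. Median values at the 1818 peaks were 41 and 42 in regenerating, 9 and 9 in uninjured, 10.5 and 12 in junba and 13 and 11 in junbb libraries. The regenerating and uninjured values chose both classes, so no reading is drawn from which of them the junba and junbb medians lie near. The calls that made the classes and the unadjusted p-values given here share the estimate of spread. At the 977 peaks lower in regenerating cells the median difference was 0.03. An unadjusted p under 0.05 in limma was found at 12.0% of these, 70 higher with junba and 47 higher with junbb. Median values there were 28 and 27 in regenerating, 70 and 73 in uninjured, 40 and 37 in junba and 36 and 35 in junbb libraries.

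The highest peaks of the table, a grouping chosen after the values were seen, differed between the replicates of both duplicates, most with junba. Of the 93 peaks with a mean of 400 or more, most were wide (median 4974 bp) and 81 had no assigned gene. An estimate above 0 was found at 84 of them, where 6861 of all 14776 peaks had one. The only call among them was at zgc:91999, which went the other way, higher with junbb (−1.48). The median of the 93 peaks was 0.76. Their summed values were 114007 and 326395 with junba, 138470 and 85231 with junbb and 254760 and 245533 in uninjured cells. Junba replicate 2 was high, junba replicate 1 lay between the junbb libraries, and replicate 2 minus replicate 1 of junba had a median of 1.52. The same difference for junbb had a median of −0.69. These peaks took 15.8% and 34.6% of the summed tested values with junba and 18.5% and 12.0% with junbb. Equal totals computed without them called 8 peaks higher with junba and 5 higher with junbb, as the deposited scaling did.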

How the data were processed

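ATAC-seq values of 8 libraries came from 1 deposited table of 16610 peaks. The tools named, with no roles, per the submitters' processing notes, are DESeq, DESeq2 1.18.1, deepTools 2.5.7, MACS2, Trimmomatic 0.36, Picard 2.18.16 and STAR 2.6.1d, and the build is danRer11 (GRCz11). Mapping filters, cut-site shift, peak thresholds and the way of background correction are not given in the sources used here. Each deposited value is a score: the authors corrected reads for background, divided them by size factors and rounded, per the file headers, so no count model was fitted. The fraction of a peak that overlaps a gene body was taken from the authors' annotation as deposited. Coordinates, assigned genes and distances are those of the deposited table, printed as given; whether they count from 0 or 1 is not stated. The 6 A-Fos libraries were not used.

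Depth was estimated from the spacing of a library's values. Peaks with a mean of at least 10 were fitted with limma 3.58.1 (R 4.3.3) on log2(value + 5), 4 groups, with trend and robust empirical Bayes moderation. The fit was tested on simulated data. Calls used a Benjamini-Hochberg adjusted p under 0.05 over all 14776 peaks. Up to 12 called peaks a direction with non-overlapping groups and a mean that reached the median of 29.5 were to be named. Only 7 passed, so the other 6 called peaks were added after their values were seen, as were further list members. Each list's peak with the smallest p is named, and every tested peak of junba and junbb. Members and lists were chosen with earlier results of these data known. Of 15 alternatives, 1 was added after seeing the values. Figures used Python 3.11.15 and Matplotlib 3.10.9.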

Additional observations from a re-analysis of the deposited data

How the results depend on the processing

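The main counts were 8 peaks higher with junba and 5 higher with junbb. A pseudocount of 1 gave 4 higher with junba, and a pseudocount of 20 gave 14 and 17. A mean of at least 30 gave 4 and 3 among 7289 tested peaks, and no filter gave 8 higher with junbb. Equal totals gave 4 higher with junba. Without trend and robust estimation there were 2 in each direction. Leaving out 1 library gave 0 to 124 higher with junba and 1 to 202 higher with junbb. The lone library left in a group is then assumed to vary like the other groups. The cause of these changes was not tested, other than that fewer peaks were tested with the stricter mean. The replicate block gave 10 and 7 peaks, all 13 main calls included. The replicate numbers share only a number: the deviations of same-numbered junba and junbb libraries correlated with r = 0.02. Over the 4 omissions the estimate ran from −0.14 (without junbb replicate 2) to 0.64 at the junbb promoter peak. At the junba promoter peak it ran from −0.38 to 0.26 (without junbb replicate 2), with 0.00 without junba replicate 2. These changes of sign were at uncalled peaks. Of the other alternatives for single peaks and list medians, 772 kept direction and call or moved by less than the replicate spread, 48 lost a call, 9 gained one and 39 moved by more than that spread. With 2 libraries a group, the median half-width of the 95% interval was 0.79 on the log2 scale, and 0.88 at peaks with a mean under 30.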
